A study of Rattus norvegicus with 57 samples.

Results

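The 10 genes described here are immediate early genes, Fos, Fosb, Egr1, Egr2, Egr3, Nr4a1, Atf3, Dusp1, Myc and Ccn1, and they were measured in rat kidney cortex of animals given cisplatin once. Cisplatin is a platinum drug used against tumours, which binds DNA and is known to damage the proximal tubule of the kidney. They were chosen by name with earlier results of these arrays known, from their signals in each dose group and in the same-day controls. They are 10 of 11683 genes tested. Their names matched 13 probe sets, and each gene was read from its probe set with the highest mean. The rats were male Han Wistar animals, 8 weeks old, which received 0, 1 or 3 mg/kg cisplatin in saline by intraperitoneal injection and were killed on day 3, 5, 8 or 26. The control animals received saline alone. RNA came from a homogenate enriched in kidney cortex, so each value is a mean over all cell types in the piece. The design text gives 6 animals per group, and the 57 arrays analysed here number 5 per group, except 4 for control rats on day 26 and 3 for 1 mg/kg on day 5.

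Immediate early genes are transcribed within minutes of a stimulus, without new protein synthesis, from transcription factors that are already in the cell. Kinase cascades phosphorylate ternary complex factors bound with serum response factor at CArG boxes, and CREB at cyclic AMP response elements (CRE). The transcripts are short-lived, so their level follows recent signalling. Fos and Fosb encode AP-1 subunits that pair with Jun proteins. Egr1, Egr2 and Egr3 encode zinc finger factors, Nr4a1 an orphan nuclear receptor, Atf3 a stress-induced bZIP factor and Myc a growth-promoting bHLH factor. Dusp1 encodes a phosphatase that inactivates MAP kinases, and Ccn1 a secreted matricellular protein that is also a target of YAP. In the kidney, several of them are known to be induced by ischaemia, toxic injury and handling of the tissue.

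The promoters are shown because those inputs act there, and 6 of the 10 members had an entry in the RefSeq promoter table of the GRCr8 build. Each window runs from 250 bases before the annotated start of transcription to 50 bases after it, 5′ to 3′ on the strand of the gene. The 4 printed below are those with a CArG box or with more than 1 CRE half-site. Capitals mark CArG boxes, the full CRE TGACGTCA and the CRE half-site TGACG, searched on both strands, so that CGTCA is a half-site on the opposite strand. A full CRE also holds overlapping half-sites.
Egr1: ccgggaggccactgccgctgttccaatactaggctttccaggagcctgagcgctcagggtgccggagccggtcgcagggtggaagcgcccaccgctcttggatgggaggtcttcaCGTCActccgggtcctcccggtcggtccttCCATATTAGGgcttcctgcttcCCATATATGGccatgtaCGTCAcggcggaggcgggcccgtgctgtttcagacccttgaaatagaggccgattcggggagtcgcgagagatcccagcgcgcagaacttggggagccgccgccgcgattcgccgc
Egr2: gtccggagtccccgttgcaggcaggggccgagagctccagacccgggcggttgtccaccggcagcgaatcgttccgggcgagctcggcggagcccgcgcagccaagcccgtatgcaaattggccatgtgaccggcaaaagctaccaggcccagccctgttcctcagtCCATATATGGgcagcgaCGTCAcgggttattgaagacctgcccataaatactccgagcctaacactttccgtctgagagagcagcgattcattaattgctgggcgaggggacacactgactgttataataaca
Nr4a1: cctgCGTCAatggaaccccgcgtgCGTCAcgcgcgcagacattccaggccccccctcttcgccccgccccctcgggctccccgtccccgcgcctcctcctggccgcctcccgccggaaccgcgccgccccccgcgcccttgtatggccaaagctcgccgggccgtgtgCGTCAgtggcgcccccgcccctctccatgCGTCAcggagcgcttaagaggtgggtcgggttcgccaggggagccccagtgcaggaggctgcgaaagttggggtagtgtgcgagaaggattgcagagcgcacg
Dusp1: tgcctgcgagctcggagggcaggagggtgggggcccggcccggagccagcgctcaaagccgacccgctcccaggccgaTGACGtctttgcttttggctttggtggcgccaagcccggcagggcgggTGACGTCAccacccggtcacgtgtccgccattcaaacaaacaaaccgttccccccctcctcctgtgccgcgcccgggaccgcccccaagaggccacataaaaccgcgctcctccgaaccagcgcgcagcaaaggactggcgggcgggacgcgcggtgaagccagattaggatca
These lie at chr18:26736828-26737127 on the plus strand for Egr1, chr20:21054392-21054691 on the minus strand for Egr2, chr7:134259888-134260187 on the plus strand for Nr4a1 and chr10:17184603-17184902 on the plus strand for Dusp1. Egr1 and Egr2 both held a CArG box from -83 to -74 and a CRE half-site from -66 to -62, counted in bases from the start. Egr1 held another CArG box from -105 to -96 and another half-site from -135 to -131. Nr4a1 held 4 half-sites and no CArG box. Dusp1 held a full CRE from -124 to -117. Of 33469 promoters of the same length, 1.64% held a CArG box, 1.83% a full CRE and 21.2% a half-site, while among the 6 members the numbers were 2, 1 and 5. The AP-1 site TGANTCA was in 7.33% of all promoters and in 0 of the 6 members. The EGR site GCGNGGGCG was in 4.98% of promoters and in Nr4a1. TATAAA was in 14.2% of promoters, in Ccn1 from -34 to -29 and in Fosb from -180 to -175 on the opposite strand. A match is a description of these letters and shows no binding.

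**Figure D1:**
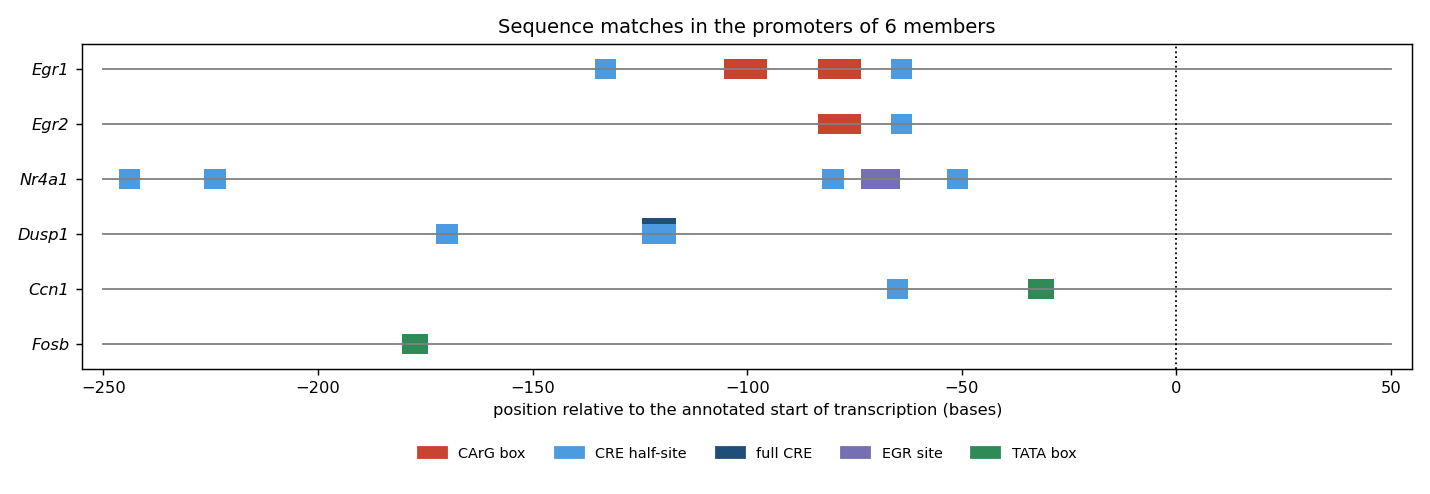
Positions of sequence matches in the promoters of 6 members, in bases from the annotated start of transcription (dotted line). Each coloured block is a match to 1 motif on either strand, and Egr1 and Egr2 share the position of a CArG box and a CRE half-site.

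Signals are the deposited MAS5 values on a linear scale, with the same trimmed mean on every array, and the number of arrays limits the precision. Values are given as signals per animal, in the order of the replicate numbers of the labels. Changes are differences of log2(signal + 16) with the standard error of a limma fit over all 57 arrays, and the offset of 16 understates the changes of dim genes. A change past the threshold has an adjusted p under 0.05. Each of the 8 comparisons with same-day controls was used in choosing the members, so their changes and counts are descriptions without p-values. All 10 members passed the filter on low values, but Fosb exceeded the 40th percentile of the array's probe sets on only 5 arrays and Egr3 on 17, so both were close to background. The 5 arrays of Fosb were all from cisplatin rats, 3 of them from 1 mg/kg on day 8, so Fosb entered the fit only through groups where it was high and its values are given without p. The second probe sets of Fos and Egr2 passed on 2 and 0 arrays and that of Dusp1 on 36. Signals of different genes come from different probes and are not compared. Where groups are said to overlap or not, the share of all genes without overlap was not counted, so this is a description.

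The tissue label was set against marker genes. All 5 markers of the proximal tubule were measured, with a summed signal of 9778 to 13967 on days 3, 8 and 26. The lymphocyte markers Cd3e and Cd8a were near background in every group, with a summed signal of at most 33.1 on these days. The liver transcripts Alb and Ttr were summed to 106 to 319 in 3 mg/kg rats, 142 to 1719 in 1 mg/kg rats and 176 to 474 in control rats on day 3, and were at most 25.3 in every group on the later days. Array medians lay between 20.3 and 26.1, and the 3′/5′ signal ratio of actin, a sign of RNA integrity, between 4.47 and 8.58.

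**Figure D2:**
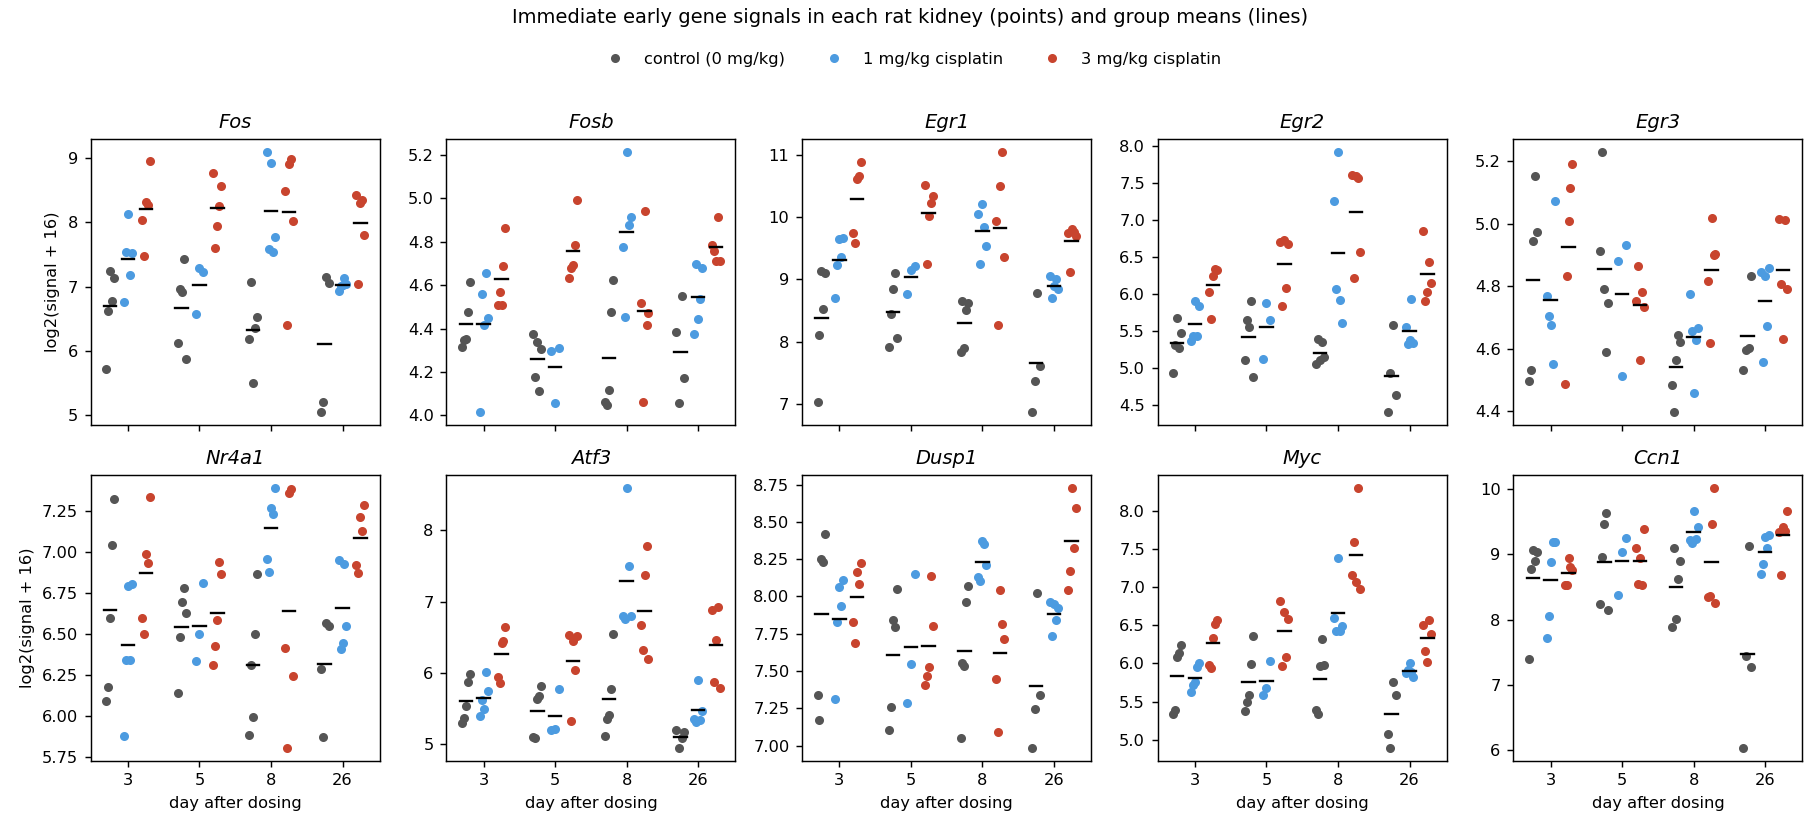
Signal of each member in every animal as log2(signal + 16), by day after dosing, with control, 1 mg/kg and 3 mg/kg groups from left to right within a day. Points are single rats and black lines are group means; Egr1 in 3 mg/kg rats lay above every control on days 3, 5 and 26.

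On day 3 after 3 mg/kg, Egr1 and Fos stood above all same-day controls, while Dusp1, Ccn1, Nr4a1 and Egr3 overlapped them widely. Egr1 signals were 847, 753, 1556, 1611 and 1888 in 3 mg/kg rats, against 115, 260.4, 547, 353 and 536 in control rats. The groups did not overlap, and the change was 1.92 ± 0.35. Fos signals were 246, 163, 304, 293 and 483 in 3 mg/kg rats, against 36.4, 82.4, 136, 93.9 and 125 in control rats. These groups did not overlap either, with a change of 1.52 ± 0.40. Egr2, with 4 of 5 treated animals above every control, had a change of 0.79 ± 0.28 and Atf3 of 0.66 ± 0.28, neither past the threshold. Ccn1 averaged 408 ± 53.4 in 3 mg/kg rats and 412 ± 150 in control rats (SD, n = 5 each), and its change was 0.09 ± 0.36. In all, 2 of 10 members passed the threshold, where 9.85% of all genes tested did, and the median change was 0.33 for the members and 0.04 for all genes.

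The actin 3′/5′ ratio moved with this comparison: it averaged 5.89 ± 0.10 in 3 mg/kg rats and 4.66 ± 0.25 in control rats (SD, n = 5 each), without overlap. With that ratio as a covariate the change of Egr1 was 1.81 and still past the threshold, and that of Fos was 1.24 and no longer past it. The summed signal of the red cell genes Hbb and Alas2 also differed, at 506 to 1080.1 in 3 mg/kg rats and 1627 to 2770 in control rats, and their part in the result was not tested. Fewer cells of a type and less RNA per cell cannot be told apart in such a homogenate. When only the compared groups were fitted, Egr2 and Atf3 passed as well.

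On day 5 after 3 mg/kg, Egr1 and Fos were again higher than in controls, and Egr2, Fosb and Myc were past the threshold with them. Egr1 signals were 1463, 593, 1029, 1189 and 1282 in 3 mg/kg rats, against 225, 332, 446, 535 and 249.6 in control rats, a change of 1.60 ± 0.35 with no overlap. Fos signals were 423, 178, 229.6, 291 and 364 in 3 mg/kg rats, against 54.0, 109, 105, 156 and 42.8 in control rats, a change of 1.57 ± 0.40 with no overlap. Egr2 signals were 88.4, 41.4, 90.3, 51.9 and 86.8 in 3 mg/kg rats, against 18.6, 34.2, 31.1, 44.3 and 13.4 in control rats. The second treated animal of Egr2 lay within the control range, and the change was 0.99 ± 0.28. Myc averaged 72.3 ± 21.9 in 3 mg/kg rats and 40.0 ± 16.6 in control rats (SD, n = 5 each), with a change of 0.66 ± 0.22 and overlapping groups. Fosb, near background, had signals of 8.82 to 15.9 in 3 mg/kg rats and 1.29 to 4.73 in control rats, and a change of 0.49 ± 0.13. It passed the filter only through cisplatin arrays, so nothing is read from its call. Nr4a1, Dusp1 and Ccn1 had changes of 0.08 ± 0.23, 0.06 ± 0.21 and 0.02 ± 0.36. Of the 10 members, 5 passed, where 8.8% of all genes tested did. The markers of the thick ascending limb and distal tubule summed to 7049 to 7808 in 3 mg/kg rats and 8486 to 9364 in control rats, with Calb1 lower among the 4. Those of fibroblasts and smooth muscle summed to 1203 to 1493 in 3 mg/kg rats and 889.7 to 1159 in control rats, with Tagln higher among the 6, and the part of both in the members' signals was not tested. The count was 3, with Fos, Fosb and Egr1, when control replicate 1 or either of replicates 1 and 3 of the 3 mg/kg rats was left out.

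**Figure D3:**
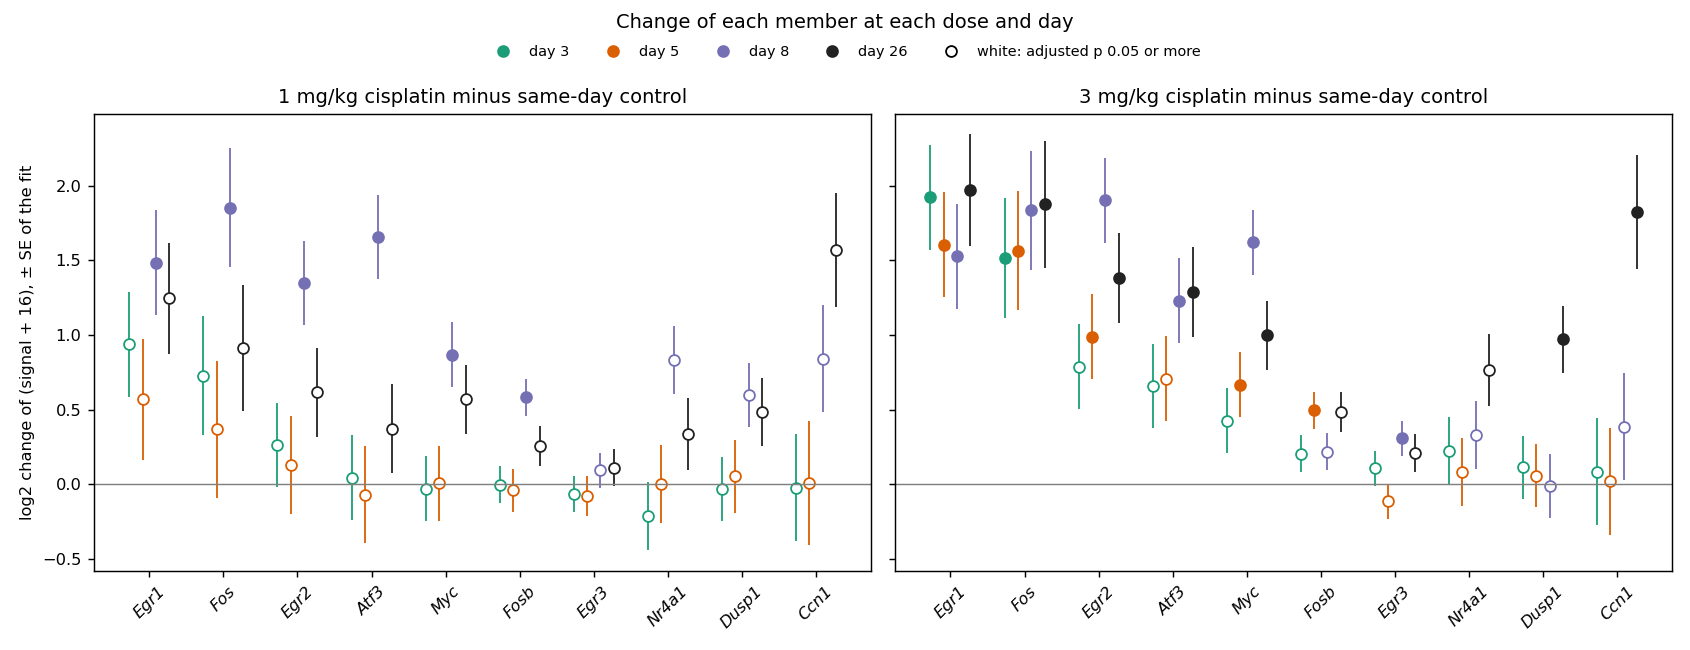
Change of each member against same-day controls, as the difference of mean log2(signal + 16), at 1 mg/kg (left) and 3 mg/kg (right). Bars are ± SE of the fit, colours are days and white points have an adjusted p of 0.05 or more; at 3 mg/kg, Egr1 and Fos lay between 1.52 and 1.97 on all 4 days.

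On day 8 after 3 mg/kg, Egr2 and Myc lay above every control and Fos, Egr1, Atf3 and Egr3 were higher on average. These 6 of 10 members were past the threshold, where 37.3% of all genes tested were, more than on any other day at this dose. Egr2, a factor best known from myelination in Schwann cells, had signals of 179, 58.7, 177, 173 and 79.3 in 3 mg/kg rats, against 17.2, 25.9, 18.5, 25.0 and 19.5 in control rats. The groups did not overlap, and the change of 1.90 ± 0.28 was the largest of Egr2 on any day. Myc signals were 127, 177, 119, 298 and 110.1 in 3 mg/kg rats, against 25.8, 24.4, 46.3, 63.9 and 47.2 in control rats. The change of 1.62 ± 0.22 was the largest of Myc on any day, again with no overlap. Fos signals were 345, 68.3, 466, 489 and 244 in 3 mg/kg rats, against 57.1, 118, 29.2, 65.6 and 76.4 in control rats. The second treated rat was within the control range for Fos, and the change was 1.83 ± 0.40. Egr1 signals were 972, 293, 1437, 2105 and 639 in 3 mg/kg rats, against 212, 385, 221, 350.1 and 377 in control rats, a change of 1.53 ± 0.35. Atf3 averaged 112 ± 62.8 in 3 mg/kg rats and 37.2 ± 23.7 in control rats (SD, n = 5 each), a change of 1.23 ± 0.28 with overlapping groups. Egr3, near background, had a change of 0.31 ± 0.12. Dusp1 had a change of -0.01 ± 0.21, with a mean of 186 ± 48.7 in 3 mg/kg rats and 189 ± 54.9 in control rats (SD, n = 5 each). Replicate 2 of the 3 mg/kg rats was the lowest of its group for 7 of the 10 members.

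Cell type markers moved with this comparison too, where 37.3% of all genes tested passed the threshold. All 4 measured markers of the thick ascending limb and distal tubule were lower, with a summed signal of 643 to 4146 in 3 mg/kg rats and 7488 to 8585 in control rats. Of 6 fibroblast and smooth muscle markers, 4 were higher, with a summed signal of 1915 to 2691 in 3 mg/kg rats and 764 to 1138 in control rats. Of 4 measured macrophage markers, 3 were higher, with 224 to 356 in 3 mg/kg rats and 168 to 214 in control rats. The neutrophil genes S100a8 and S100a9 were higher, with a summed signal of 20.9 to 285 in 3 mg/kg rats and 12.3 to 44.1 in control rats, and the 285 belonged to replicate 2. Of 5 endothelial markers, Vwf, Tie1 and Emcn were lower, with the list at 899 to 1022 in 3 mg/kg rats and 1009 to 1145 in control rats. Aqp2, 1 of 2 collecting duct markers, Podxl, 1 of 2 measured podocyte markers, and Slc5a2, 1 of 5 proximal tubule markers, were lower as well. The part of these cell types in the members' signals was not tested.

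On day 8 after 1 mg/kg, Fos, Fosb, Egr1, Egr2, Atf3 and Myc were past the threshold, 6 of 10 members, where 0.522% of all genes tested were. Of these, Fosb passed the filter on low values mainly through 3 arrays of this group, so nothing is read from its call. Nr4a1, Dusp1 and Ccn1 were not among the 6. Every treated animal lay above every control for them, as for Fos, Egr1, Egr2, Atf3 and Myc. How many of all genes were separated in this way was not counted, so this describes the animals only. Fos signals were 530.4, 175, 469, 169 and 203 in 1 mg/kg rats, against 57.1, 118, 29.2, 65.6 and 76.4 in control rats, a change of 1.85 ± 0.40. Atf3 signals were 95.4, 92.6, 370.4, 166 and 95.6 in 1 mg/kg rats, against 18.6, 24.9, 26.4, 38.5 and 77.6 in control rats, a change of 1.65 ± 0.28. Egr1 averaged 889.8 ± 234 in 1 mg/kg rats and 309 ± 85.5 in control rats (SD, n = 5 each), a change of 1.48 ± 0.35. Egr2 signals were 138, 51.4, 225, 44.7 and 33.1 in 1 mg/kg rats, against 17.2, 25.9, 18.5, 25.0 and 19.5 in control rats, a change of 1.35 ± 0.28. Replicates 1 and 3 of the 1 mg/kg rats carried the high values of Fos and Egr2, and the other 3 rats lay closer to the controls. Myc signals were 80.8, 70.3, 151, 70.2 and 73.9 in 1 mg/kg rats, a change of 0.87 ± 0.22. Fosb had a change of 0.58 ± 0.13, and Nr4a1 of 0.83 ± 0.23. Ccn1 averaged 639 ± 95.7 in 1 mg/kg rats and 366 ± 134 in control rats (SD, n = 5 each), a change of 0.84 ± 0.36.

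The count at 1 mg/kg moved when single animals were left out. It was 1, with Atf3 alone, without 1 mg/kg replicate 3, and 2, with Fosb and Atf3, without 1 mg/kg replicate 1. Without control replicates 2 and 3 in turn it was 3 and 2, and it was 1, with Egr1, when only the compared groups were fitted. With all arrays, 61 of 11683 genes tested were past the threshold. The number of all genes in the other fits is not given here, so these drops are not read as those of the members alone. The actin ratio ran from 4.52 to 8.58 in these 1 mg/kg rats and from 4.73 to 5.90 in control rats, and with it as a covariate the same 6 members passed. None of the cell type markers passed the threshold in this comparison, but replicates 1 and 3 lay outside the control range in 3 lists. Thick ascending limb and distal tubule markers summed to 6618 and 4614 in these 2 rats, 7967 to 8561 in the other 3 rats of 1 mg/kg and 7488 to 8585 in control rats. Fibroblast and smooth muscle markers summed to 1533 and 2022 in the same rats, 839 to 1014 in the other 3 and 764 to 1138 in control rats. Macrophage markers summed to 271 and 353 in the same rats, 175 to 209.9 in the other 3 and 168 to 214 in control rats. The part of these cell types in the members' signals was not tested.

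**Figure D4:**
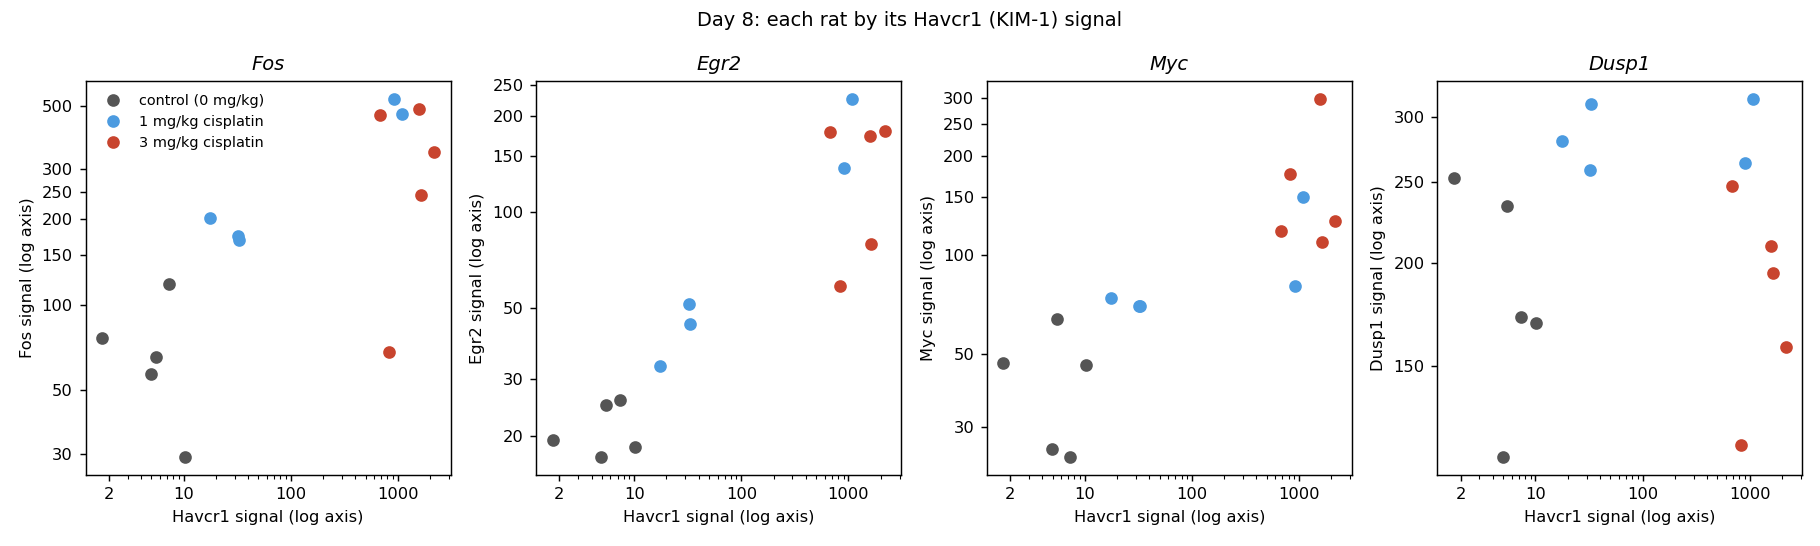
Signals of Fos, Egr2, Myc and Dusp1 in each rat on day 8 against that rat's signal of Havcr1, both on log axes. Points are single rats coloured by dose; the 5 rats of 1 mg/kg fall at Havcr1 signals of 17.6 to 1085.

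The injury marker KIM-1 is a membrane protein of damaged proximal tubule cells, and the signal of its gene, Havcr1, is given beside these values. On day 8 its signals were 912, 32.4, 1085, 32.9 and 17.6 in 1 mg/kg rats and 1.73 to 10.2 in control rats. The 2 rats of 1 mg/kg with the highest Havcr1 signals, replicates 1 and 3, were also those with the highest Fos and Egr2 signals of their group. For Dusp1 the same animals had 264 and 315, against 259 to 311 in the other 3 rats of 1 mg/kg. The 3 mg/kg rats had Havcr1 signals of 2177, 829, 679.7, 1581 and 1640 in the order of their replicates. Replicate 2, which had the lowest Fos and Egr1 signals of its group, was thus far above every control rat in Havcr1. Its array had a median signal of 20.3, the lowest in the series, against 23.8 to 25.6 in the rest of its group. The part of this in its low signals was not tested.

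On day 26, 3 mg/kg rats had 7 of 10 members past the threshold, where 0.753% of all genes tested were. Egr1 signals were 845, 539, 887, 850.3 and 812 in 3 mg/kg rats, against 101, 149, 426 and 178 in control rats. The groups did not overlap, and the change was 1.97 ± 0.37. Fos signals were 328, 116, 301, 311 and 208 in 3 mg/kg rats, against 17.1, 20.7, 125 and 117 in control rats, a change of 1.87 ± 0.42. Only replicate 2 of the treated rats fell within the control range for Fos. Ccn1 signals were 634, 394, 671, 643 and 794 in 3 mg/kg rats, against 49.8, 159, 544 and 139 in control rats, a change of 1.82 ± 0.38. Ccn1 and Dusp1 were past the threshold on this day and on no earlier day at 3 mg/kg. Dusp1 signals were 248, 272, 408, 304 and 369.8 in 3 mg/kg rats, against 111, 136, 245 and 146 in control rats, a change of 0.97 ± 0.23 with no overlap. Atf3 signals were 102, 42.5, 72.1, 105 and 39.2 in 3 mg/kg rats, against 20.6, 14.8, 17.9 and 20.1 in control rats, a change of 1.29 ± 0.30 with no overlap. Egr2 and Myc had changes of 1.38 ± 0.30 and 1.00 ± 0.23, and Nr4a1 and Fosb, not past the threshold, of 0.77 ± 0.24 and 0.48 ± 0.13. The groups did not overlap for these 4 genes, and the share of all genes without overlap was not counted. The median change was 1.14 for the members and 0.03 for all genes.

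This count moved when single arrays were left out, and the 4 control arrays differed widely among themselves. Without control replicate 1 it was 0. Without control replicates 2 and 4 in turn it was 3 each, and without 3 mg/kg replicates 1, 3 and 4 in turn it was 3, 4 and 2. When only the compared groups were fitted it was 1, with Egr1, and with an offset of 64 it was 4. The actin ratio was 5.07 to 6.83 in 3 mg/kg rats and 4.47 to 5.73 in control rats, and with it as a covariate 5 members passed, without Fos and Dusp1. Egr1 was among the genes past the threshold in all of these but the fit without control replicate 1. With all arrays, 88 of 11683 genes tested were past the threshold. The number of all genes in the other fits is not given here, so these drops are not read as those of the members alone. Havcr1 signals were 327, 36.5, 42.5, 167 and 19.2 in 3 mg/kg rats, against 0.772 to 7.41 in control rats. Markers of macrophages had a summed signal of 177 to 266 in 3 mg/kg rats and 144 to 169 in control rats, with 0 of 4 past the threshold.

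The other days at 1 mg/kg held no member past the threshold. Percentages of all genes were 0.0942% on day 3, 0.0171% on day 5 and 0.00856% on day 26. On day 3 Egr1 signals were 402, 584, 788, 641 and 794 in 1 mg/kg rats, against 115 to 547 in control rats, a change of 0.94 ± 0.35. On day 5 the largest change was that of Egr1, at 0.57 ± 0.41, with 3 rats in the 1 mg/kg group. On day 26 Ccn1 signals were 401, 445, 601, 532 and 613 in 1 mg/kg rats, against 49.8, 159, 544 and 139 in control rats, a change of 1.57 ± 0.38. Ccn1 passed the threshold there without control replicate 3. Fos signals were 106, 112, 114, 124 and 116 in the same 1 mg/kg rats, a spread far below that of the 4 control rats, which enclosed them.

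The doses were also compared with each other, which the choice of members did not name, although these tests share arrays with the comparisons above. Each is also a difference between comparisons that entered the choice of members, so its p is not independent of that choice. On day 5 no member other than Fosb was past the threshold by limma, where 3.97% of all genes tested were. Fosb passed the filter only through cisplatin arrays, so its place past the threshold is not read as a test result. By limma, an unadjusted p under 0.05 was found for 6 members, Fosb included, and for 2204 of 11683 genes tested. Fosb signals were 8.82 to 15.9 in 3 mg/kg rats and 0.666 to 3.85 in 1 mg/kg rats, both near background, a difference of 0.53 ± 0.14. Its place past the threshold was lost without any 1 of the 3 rats of 1 mg/kg and without 3 mg/kg replicate 5. Fos and Egr1 lay higher in all 5 rats of 3 mg/kg than in the 3 rats of 1 mg/kg, with 95% intervals of the difference of 0.27 to 2.12 and 0.22 to 1.85, but were not past the threshold. When only these 2 groups were fitted, Fos passed it, at an adjusted p of 0.0431 (limma).

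On day 8 the doses differed for Myc and Dusp1, where 23.1% of all genes tested differed, and Fosb was past the threshold as well. Since 3 arrays of the 1 mg/kg rats let Fosb through the filter, its place past the threshold is not read as a test result. Myc, which drives growth and ribosome production, was higher at 3 mg/kg, with 127, 177, 119, 298 and 110.1 in 3 mg/kg rats and 80.8, 70.3, 151, 70.2 and 73.9 in 1 mg/kg rats. The difference was 0.75 ± 0.22 (limma, adjusted p = 0.0082), and without 3 mg/kg replicate 4 it was 0.53 and not past the threshold. Dusp1 was lower at 3 mg/kg, with 158, 120.5, 248, 209 and 194 in 3 mg/kg rats and 264, 259, 315, 311 and 280.2 in 1 mg/kg rats. The groups did not overlap, and the difference was -0.61 ± 0.21 (limma, adjusted p = 0.03). Its call was lost in turn without 1 mg/kg replicates 3 and 4, at -0.58 each, and without 3 mg/kg replicates 1 and 2, at -0.57 and -0.48. Fosb signals were near background, with a difference of -0.36 ± 0.13, and leaving out any 1 of 6 of the 10 rats took it off the threshold, at values from -0.36 to -0.26. Those were 3 mg/kg replicates 2, 4 and 5 and 1 mg/kg replicates 3, 4 and 5. With array weights the call of Dusp1 was lost, at -0.53, and Egr2 passed, at 0.91. Dusp1 was at -0.39 and not past the threshold when its probe sets were averaged. When only these 2 groups were fitted, Dusp1 was the single member past the threshold. Fos and Egr1 had differences with 95% intervals of -0.82 to 0.78 and -0.66 to 0.75, so these data bound a difference of either sign only that widely.

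On days 3 and 26 no member differed between the doses by limma, where 3.12% and 0.0% of all genes did. By limma, 3 and 5 members had an unadjusted p under 0.05, as did 2178 and 1197 of 11683 genes tested. On day 3 the difference of Egr1 was 0.98 ± 0.35 (limma, adjusted p = 0.108), with 4 of 5 rats of 3 mg/kg above every rat of 1 mg/kg, and it passed with array weights, at 1.02, and when only the 2 groups were fitted. On day 26 all 5 rats of 3 mg/kg lay above every rat of 1 mg/kg for Egr1, Dusp1, Myc and Fosb. The share of all genes with such a separation was not counted, so this describes the animals only. The Egr1 difference there had a 95% interval of 0.02 to 1.43 and that of Dusp1 one of 0.06 to 0.91.

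The change of the 3 mg/kg effect between sampling days was tested as an interaction of dose and day. Each such change is a difference between comparisons that entered the choice of members, so its p is not independent of that choice. From day 3 to day 5 no member was past the threshold by limma, where 1.52% of all genes were. By limma, 0 members had an unadjusted p under 0.05, where 1873 of 11683 genes tested did. From day 5 to day 8 the effect on Myc rose by 0.96 ± 0.31 (limma, adjusted p = 0.026), the single member among 16.3% of all genes. From day 8 to day 26 the effect on Dusp1 rose by 0.98 ± 0.31 (limma, adjusted p = 0.023), the single member among 15.0% of all genes. For Fos and Egr1 the 95% intervals of that change from day 8 to day 26 were -1.13 to 1.21 and -0.58 to 1.47. The interval of Ccn1 was 0.38 to 2.49 (limma, adjusted p = 0.0555), and Ccn1 passed the threshold in turn without 6 of the 19 arrays of these groups, at 1.56 to 1.99. The calls of Myc and Dusp1 were each lost when any 1 of several arrays was left out. That of Myc was lost without control day 5 replicate 5, control day 8 replicates 1 and 2, 3 mg/kg day 5 replicates 2 and 4 or 3 mg/kg day 8 replicate 4, at 0.74 to 0.87. That of Dusp1 was lost without control day 8 replicate 5, control day 26 replicate 1, 3 mg/kg day 8 replicate 2 or 3 mg/kg day 26 replicate 3, at 0.85 to 0.90. Neither passed when only the 4 compared groups were fitted.

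For the 1 mg/kg effect, no gene of the whole table was past the threshold from day 5 to day 8 or from day 8 to day 26, so percentages were 0.0% for both. These changes too are differences between comparisons that entered the choice of members. By limma, 6 members from day 5 to day 8 and 1 from day 8 to day 26 had an unadjusted p under 0.05. Of 11683 genes tested, 790 and 722 did. The change of the Atf3 effect from day 5 to day 8 had a 95% interval of 0.86 to 2.59, and the change of that effect from day 8 to day 26 one of -2.11 to -0.45.

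Control rats alone differed between days in 4.45% of all genes on day 5 against day 3, 4.78% on day 8 against day 5 and 1.28% on day 26 against day 8. No member was among them. By limma 0, 1 and 2 members had an unadjusted p under 0.05, where 2195, 2463 and 1823 of 11683 genes tested did. The 2 on day 26 were Ccn1, with a 95% interval of -1.80 to -0.26, and Myc. Ccn1 passed the threshold without control day 26 replicate 3, at -1.58.

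Differences between animals of the same group were large for these genes. Ccn1 had a pooled within-group SD of 0.81 on the log2 scale in the 19 control rats, 0.44 in the 18 rats of 1 mg/kg and 0.49 in the 20 rats of 3 mg/kg. For Fos the SDs were 0.75, 0.51 and 0.70 in the same order of doses. The members moved together from animal to animal: after each group's mean was taken off, all 45 pairs of members correlated positively, with a median r of 0.48 and a range of 0.11 to 0.86 over 57 arrays. The pair of Fos and Egr1 was at the upper end, with Pearson's r of 0.86 and Spearman's rho of 0.84, and r was 0.82 without the 2 arrays farthest in Fos. Egr1 and Ccn1 correlated at 0.70 in the 38 cisplatin rats and at 0.93 in the 19 control rats. Nr4a1 and Dusp1 correlated at 0.79. Pairs with Egr3, which was near background, made up the lower end. No p is given, since the genes of a rat share 1 array and were chosen as a family. Correlations among pairs of other genes were not counted, so nothing particular to these genes is read from this.

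Single animals show the shared movement. Control day 3 replicate 1 was the lowest of its group for 9 of 10 members, and 1 mg/kg day 3 replicate 1 for 9. Control day 26 replicate 3 was the highest of its group for 8 members and 3 mg/kg day 3 replicate 5 for 8. Within groups, the array's median signal correlated with Fos at 0.42 and with Egr1 at 0.44, and its actin ratio at 0.18 and 0.08. The part of these array properties in the shared movement was not tested.

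**Figure D5:**
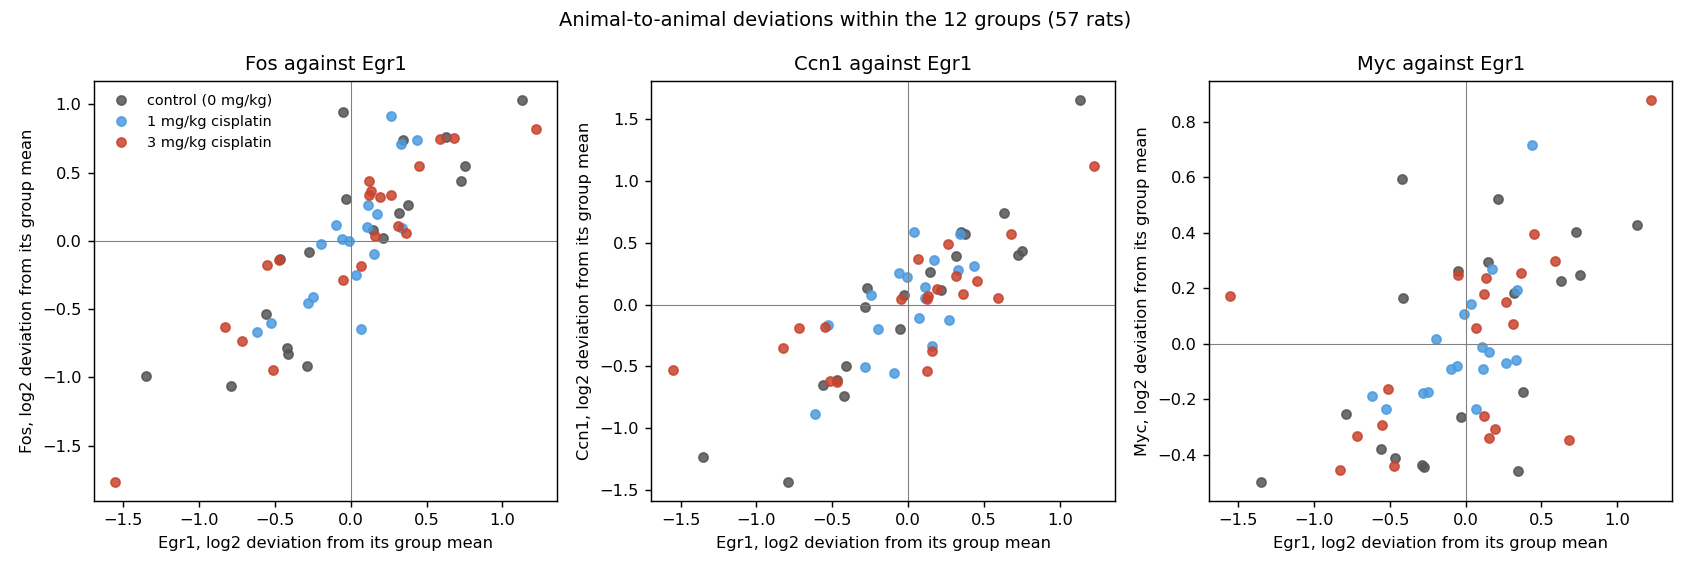
Deviation of each rat from the mean of its own group on the log2 scale, for Egr1 (horizontal) against Fos, Ccn1 and Myc (vertical). Each point is 1 of 57 rats coloured by dose, and the deviations of Fos and Egr1 lie along a line with r of 0.86.

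Other immediate early genes were read from a longer list of the class. Of 44 further genes on it, 42 were tested. At 3 mg/kg, 4 were higher and 3 lower on day 3, 11 higher and 1 lower on day 5, 20 higher and 6 lower on day 8, and 8 higher and 0 lower on day 26, where 9.85%, 8.8%, 37.3% and 0.753% of all genes passed. At 1 mg/kg, 1, 1, 7 and 0 were higher on days 3, 5, 8 and 26 and 0 were lower on each, where 0.0942%, 0.0171%, 0.522% and 0.00856% of all genes passed. The list's median change was 0.38 at 3 mg/kg on day 8 and 0.23 on day 26, against 0.04 and 0.03 for all genes. Plk2, a kinase gene that p53 also induces, had the largest change on day 3 at 3 mg/kg, at 2.005 ± 0.14, and averaged 165 in 3 mg/kg rats and 28.9 in control rats. Ier2 was higher by 0.75 ± 0.18 there. Sgk1, an aldosterone-induced kinase, and Ccn2, a relative of Ccn1, were lower, with changes of -0.998 ± 0.22 and -0.80 ± 0.22. On day 8 at 3 mg/kg, Plk2 had a change of 1.93 ± 0.14 and Junb of 1.14 ± 0.15. Ptgs2, which encodes the inducible cyclooxygenase, was lower there by -1.28 ± 0.24, and Sgk1 by -1.01 ± 0.22. On day 8 at 1 mg/kg the list's largest changes were those of Cebpd at 0.87 ± 0.21, Plk2 at 0.87 ± 0.14, Ier3 at 0.77 ± 0.19 and Junb at 0.74 ± 0.15.

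AP-1 and related bZIP factors formed a further list, with Jun proteins, relatives of Fos, Batf3, Jdp2, small Maf proteins and ATF factors. Of 12 measured, 7 were higher and 0 lower on day 8 at 3 mg/kg, where 37.3% of all genes passed, and 2 were higher on day 26, where 0.753% did. The largest changes on day 8 were those of Junb at 1.14 ± 0.15, Maff at 0.95 ± 0.18, Fosl1 at 0.67 ± 0.12 and Jund at 0.42 ± 0.09. On day 3, Junb at 0.69 ± 0.15 and Fosl1 at 0.58 ± 0.12 were higher and Jdp2, an AP-1 repressor, was lower at -0.36 ± 0.12. At 1 mg/kg on day 8, Junb was the single gene of this list past the threshold. Junb, Fosl1 and other AP-1 genes stand on both lists.

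Among 18 measured genes of ERK, SRF and CREB signalling, 3 were higher and 4 lower on day 8 at 3 mg/kg, a share near the 37.3% of all genes, and the median change was 0.00. Crem, whose short form represses CRE genes, had a change of 1.04 ± 0.19 and Elk3 of 0.36 ± 0.09, while Map2k6 had -0.73 ± 0.13 and Creb1 -0.46 ± 0.15. On day 3 Rps6ka3 at -0.45 ± 0.06 and Crebbp at -0.19 ± 0.06 were lower. None of the 18 passed at 1 mg/kg on day 8.

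Feedback inhibitors end the signal. Of 14 measured, 7 were higher and 1 lower on day 8 at 3 mg/kg, 3 higher on day 5 and 2 on day 26, where 37.3%, 8.8% and 0.753% of all genes passed. On day 8 Dusp5, a nuclear ERK phosphatase, had a change of 0.63 ± 0.11 at 3 mg/kg and of 0.68 ± 0.11 at 1 mg/kg. Spry1 at 0.52 ± 0.15 and Socs3 at 0.46 ± 0.14 were higher at 3 mg/kg, and Lrig1 was lower at -0.47 ± 0.12. On day 3 Nab2, a repressor of EGR factors, was higher by 0.55 ± 0.11. Of 9 measured partners and antagonists of Myc, 1 was higher and 1 lower on day 8 at 3 mg/kg, where 37.3% of all genes passed, Mnt at 0.39 ± 0.09 and Mxd4 at -0.44 ± 0.09. Mlx was lower by -0.18 ± 0.05 on day 3.

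The genes whose pattern over the 57 arrays was most like that of a member were ranked among 11673 others by Pearson's r. For Fos they were Ier2 at 0.91, Junb at 0.83 and Rrbp1 at 0.76. For Egr1 they were Ier2 at 0.91, Junb at 0.82 and Ier3 at 0.79. For Atf3 they were Klf6 at 0.84, Ier2 at 0.81 and Csrnp1 at 0.81, and for Myc Tgif1 at 0.86, Gdf15 at 0.84 and Tagln at 0.83. Dose, day and array are shared by all points, and no p is given.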

How the data were processed

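Kidney cortex RNA of 57 rats was read on Affymetrix Rat 230 2.0 arrays, 1 array per animal. The deposited values are MAS5 signal intensities for 31099 probe sets, per the submitters' processing notes. The MAS5 version is not given in the sources used here, nor are its settings. A trimmed mean that drops 2% of the signals at each end came to 99.99 on each array. The 57 control probe sets were left out. Through Entrez identifiers, accessions or the platform annotation, 20826 probe sets were given 1 gene symbol, while 436 matched several genes and 9780 matched none.

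Signals were analysed as log2(signal + 16). Probe sets above the 40th percentile of their array on at least 3 arrays were kept, 21829 in all, and each of 11683 genes was read from its probe set with the highest mean. A limma model (version 3.58.1, R 4.3.3) of 12 group means was fitted to all arrays, with trended variance moderation. P-values were adjusted within each comparison by the Benjamini-Hochberg method at 0.05, and 95% intervals use the moderated t distribution. The 8 comparisons with same-day controls entered the choice of members. The 12 others, between doses, of the change in effect between days and between control days, were tested. Those between doses and of the change in effect are differences of comparisons among the 8, so their p-values are not independent of the choice. The test was run on simulated data first. The labels call the animals biological replicates and name no batch, and scan dates were not used here.

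The members and lists were chosen with earlier results of these data known. All members are named. Of the other lists, up to 4 called genes with the largest change were named for 3 mg/kg on days 3 and 8 and for 1 mg/kg on day 8. The 3 genes outside the members with the highest Pearson's r were named for Fos, Egr1, Atf3 and Myc, and Havcr1 was named as the injury transcript. The alternatives were 2 offsets, quantile normalization, arrays centred on their 75th percentile, all probe sets unfiltered, only those above the 60th percentile, averaged probe sets, 2 other variance moderations, array weights, the actin ratio as a covariate, the replicate number as a block, the compared groups alone and each array left out.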

Additional observations from a re-analysis of the deposited data

Results flagged for a closer look

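Single rats stood far from the other animals of their group in 4 of 110 member-by-group sets, 3.64%, where chance flags about 1 in 20. The Atf3 signal of 1 mg/kg replicate 3 on day 26 was 43.4, and the nearest rat of that group had 28.3. The Myc signal of 1 mg/kg replicate 3 on day 8 was 151, and the nearest rat had 80.8. Without that rat the number of members past the threshold at 1 mg/kg on day 8 was 1, and the number of all genes in that fit is not given here. The Egr1 signal of 3 mg/kg replicate 2 on day 26 was 539, the lowest of its group, and the nearest rat had 812. The Ccn1 signal of control replicate 1 on day 3 was 153, the lowest of its group, and the nearest control had 421.

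The 3 mg/kg effect differed between days for a pair of members by the interaction test. The effect on each day entered the choice of members, so p is not independent of that choice. The effect on Myc was larger on day 8 than on day 5 by 0.96 on the log2 scale (limma, adjusted p = 0.026). Myc was the single member past the threshold there, among 16.3% of all genes tested. The effect on Dusp1 was larger on day 26 than on day 8 by 0.98 (limma, adjusted p = 0.023). Dusp1 was the single member there, among 15.0% of all genes tested. Neither passed when only the compared groups were fitted, and each call was lost without any 1 of several arrays.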

How the results depend on the processing

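The values below are numbers of members past the threshold, out of 10. Shares of all genes are those of the stated settings. They are not given for the other settings, so a changed number is not read as a change of the members alone. Fosb is counted where it passed, although it came through the filter on low values only by cisplatin arrays. For 3 mg/kg against control, the number with all arrays and the stated settings was 2, 5, 6 and 7 on days 3, 5, 8 and 26. Of all genes tested, 9.85%, 8.8%, 37.3% and 0.753% passed on these days. On day 3 the actin ratio as a covariate left 1, and it was 4 when only the compared groups were fitted. On day 26 it was 4 with an offset of 64 and 1 with the compared groups only. Leaving out 1 array at a time gave 2 to 3, 3 to 6, 5 to 7 and 0 to 7 on the 4 days. For 1 mg/kg against control it was 6 on day 8, where 0.522% of all genes tested passed, and 0 on the other days. The day 8 number was 1 with the compared groups only. With 1 array left out it was 1 to 7 on day 8, 0 to 1 on day 26 and 0 on days 3 and 5. For 3 against 1 mg/kg it was 0, 1, 3 and 0, where 3.12%, 3.97%, 23.1% and 0.0% of all genes tested passed. On day 3 it was 1 with array weights and 2 with the compared groups only. On day 5 it was 0 without an offset, with signals under 1 set to 1, and 0 with the filter at the 60th percentile, which Fosb did not pass. On day 8 it was 1 with the compared groups only. With 1 array left out it was 0 to 1 on day 5, 1 to 4 on day 8 and 0 on days 3 and 26. For the change of the 3 mg/kg effect it was 1 from day 5 to day 8 and 1 from day 8 to day 26. Of all genes tested, 16.3% and 15.0% passed. The first was 0 without an offset, 0 with the compared groups only and 0 to 3 with 1 array left out. The second was 2 without an offset, 2 with the filter at the 60th percentile, 0 with the compared groups only and 0 to 2 with 1 array left out. Control rats on day 26 against day 8 had 0 members, and 0 to 1 with 1 array left out. No direction of a member past the threshold turned under any of these settings. Fits of the compared groups hold fewer arrays to estimate the spread, and for the other settings the cause was not tested.

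The replicate numbers of the labels were also fitted as a replicate block. Over all genes, same-numbered arrays correlated between -0.1675 and 0.2587 in their deviations from the group means. In no group did every rat correlate best with the control of its own number. On day 5 these correlations were all positive, at 0.0147 to 0.2106 for 3 mg/kg and 0.053 to 0.154 for 1 mg/kg. There 3 of 5 and 2 of 3 rats correlated best with their own number, so a pairing on that day cannot be told from these values. For the mean of the 10 members, same-numbered rats lay on the same side of their group means in 12 of 19 pairs of 3 mg/kg and control rats (Pearson's r of 0.17, Spearman's rho of 0.20) and in 12 of 17 pairs of 1 mg/kg and control rats (r of 0.30, rho of 0.37). On day 3 this held for 5 of 5 pairs at each dose, and on day 8 for 2 of 5 pairs at 3 mg/kg and 0 of 5 at 1 mg/kg. With the block, the number for the change of the 3 mg/kg effect from day 8 to day 26 was 2, with Ccn1 gained at 1.40, that for 3 mg/kg on day 26 was 8, that for 1 mg/kg on day 8 was 8 and that for 3 against 1 mg/kg on day 8 was 4, with Nr4a1 gained at -0.50. Depth does not apply to arrays; Fosb and Egr3, which lay near background on most arrays, are the members whose signal limits the comparisons.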
